A study of Mus musculus with 6 samples.

Results

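The Rab family is the largest family of small GTPases, and its members direct the traffic of membrane vesicles inside the cell. The genes described here are the rows of the expression table whose Ensembl identifier belongs to a protein-coding mouse gene with a symbol made of Rab, a number and at most one further letter and digit. This rule took 59 genes of the 52550 in the table, or of the 21819 protein-coding genes in it, and used no expression value. RNA had been sequenced from GFP-positive cells sorted from embryonic mouse livers, with 3 libraries at E16.5 (replicates A, B and C) and 3 at E18.5. All libraries came from CD-1 mice of the Sox9-GFP genotype, where expression of the biliary transcription factor SOX9 is reported by green fluorescent protein, and each library is a pool of livers. Cells bearing any of several blood lineage markers were removed on magnetic columns before the sort. There was no treatment and no wild-type or GFP-negative group, so the only comparison is between the stages. The sample labels call the stages embryonic day 16 and embryonic day 18, whereas the methods of the study give E16.5 and E18.5, which are the names used here. Each p-value measures the spread between pools of livers.

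A Rab protein switches between a GDP-bound state and a GTP-bound state. In the GTP-bound state it sits on a particular membrane and recruits effectors that move, tether or fuse vesicles. Guanine nucleotide exchange factors (GEFs) turn a Rab on, GTPase-activating proteins (GAPs) turn it off, and GDP dissociation inhibitors carry the inactive protein through the cytosol. In epithelial cells, Rab11, Rab8 and related members bring apical membrane to the site where a lumen opens, which is the step that biliary cells pass through at these stages.

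Rab proteins are held on membranes by lipid chains on cysteines at the very end of the protein, and the last codons of a Rab gene encode these cysteines. The lines that follow give the last 30 coding bases before the stop codon for genes on which the comparisons turn, from 5′ to 3′, with cysteine codons in capitals. They were read from the GENCODE vM21 transcripts of the genome build GRCm38.
Rab11a: aagccaaaggtgcagTGCTGTcagaacatc
Rab11b: cccaacaagctgcagTGCTGCcagagcctg
Rab25: ggggaaaagagggccTGTTGCatcagcctc
Rab30: atcagctatttgactTGTTGTaatttcaac
Rab37: aagaagcgctccagcTGCTGCtcctttgtg
Rab4a: caggctccaagtgcacaggagTGTggcTGC
Rab4b: caagccgtggcccctcagcccTGTggcTGC
Rab19: gtccccaatgagagcacccgcTGTactTGT
Rab27a: gaggagaaggagaaggggttgTGTggcTGT
Rab8a: aggaccagcttcttccggTGCagtctcctg
Rab8b: aagaccagtttcttccgcTGTtctctgctt
All 59 genes carried at least 1 cysteine codon among the last 6. In 30 of them 2 cysteine codons stood side by side, as in Rab11a, Rab11b, Rab25, Rab30 and Rab37. In 20 the last codon and the last but 2 encoded cysteine, as in Rab4a, Rab4b, Rab19 and Rab27a. The remaining 9, among them Rab8a and Rab8b, had a single cysteine codon as the last codon but 3.

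The table holds TPM (length-normalised transcript counts brought to a fixed sum per library). It corrects for the length of a gene, so that levels of different genes can be compared. Reads recovered from TPM and gene length came to between 23193537 and 26206374 per library at E16.5 and between 13093937 and 22643868 at E18.5, and every E18.5 library was shallower than every E16.5 library. A level of 3 reads corresponded to 0.0993 TPM for the median Rab gene in the deepest library and to 0.210 TPM in the shallowest. For the 22452 genes whose mean reached 1 TPM, the median log2 fold change from E16.5 to E18.5 was 0.42, and it was 0.01 after median-of-ratios scaling, which sets the median ratio between libraries to 1. Of all genes called, 83.3% were higher at E18.5 in TPM as deposited and 38.1% after this scaling. Both versions are therefore given for every Rab gene described as changed. Marker levels also differed between the libraries. The labels call the cells cholangiocytes, and all 10 markers of a cholangiocyte list were present in every library, but their summed level ran from 733 to 2464 TPM at E16.5 and from 7932 to 13789 TPM at E18.5. Most of this sum was Spp1 in each library. A hepatoblast list of 12 genes summed to between 161599 and 202859 TPM at E16.5 and to between 37305 and 87275 TPM at E18.5. Of its genes 7 were called lower as deposited and 6 after scaling. Most of this sum was Alb in each library, and Alb itself was called in neither version. In bulk samples like these, fewer cells of a type and less RNA per cell cannot be told apart.

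Expression of the family was broad. A value above 0 was listed in every library for 57 of the 59 genes, 44 reached 1 TPM in every library, and 30 had a mean of at least 10 TPM at both stages. Together the 59 genes took 1949, 1850 and 1882 TPM in the E16.5 libraries (always in the order A, B, C) against 2143, 2310 and 1948 TPM in those of E18.5. The 10 most abundant genes held between 53.3% and 59.7% of that sum in each library. They were Rab2a, Rab7, Rab1b, Rab1a, Rab18, Rab10, Rab5c, Rab5a, Rab5b and Rab14, which serve the steps that every cell uses, from the endoplasmic reticulum to the Golgi, to early endosomes and to lysosomes. Rab2a, which acts between the endoplasmic reticulum and the Golgi and at the lysosome, had the highest mean level, with 167 ± 14.4 TPM (SD, n = 3) at E16.5 against 233 ± 23.8 TPM at E18.5. Rab7, the Rab of late endosomes and lysosomes, followed with 159.8 ± 3.54 TPM at E16.5 against 199.7 ± 13.0 TPM at E18.5. A further 6 genes, which were Rab3b, Rab3c, Rab6b, Rab9b, Rab39 and Rab42, had a mean under 1 TPM and were not tested. Their values lay between 0 and 1.37 TPM. Rab9b was listed at 0 in E18.5 replicate C and Rab42 in E18.5 replicate A.

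**Figure D1:**
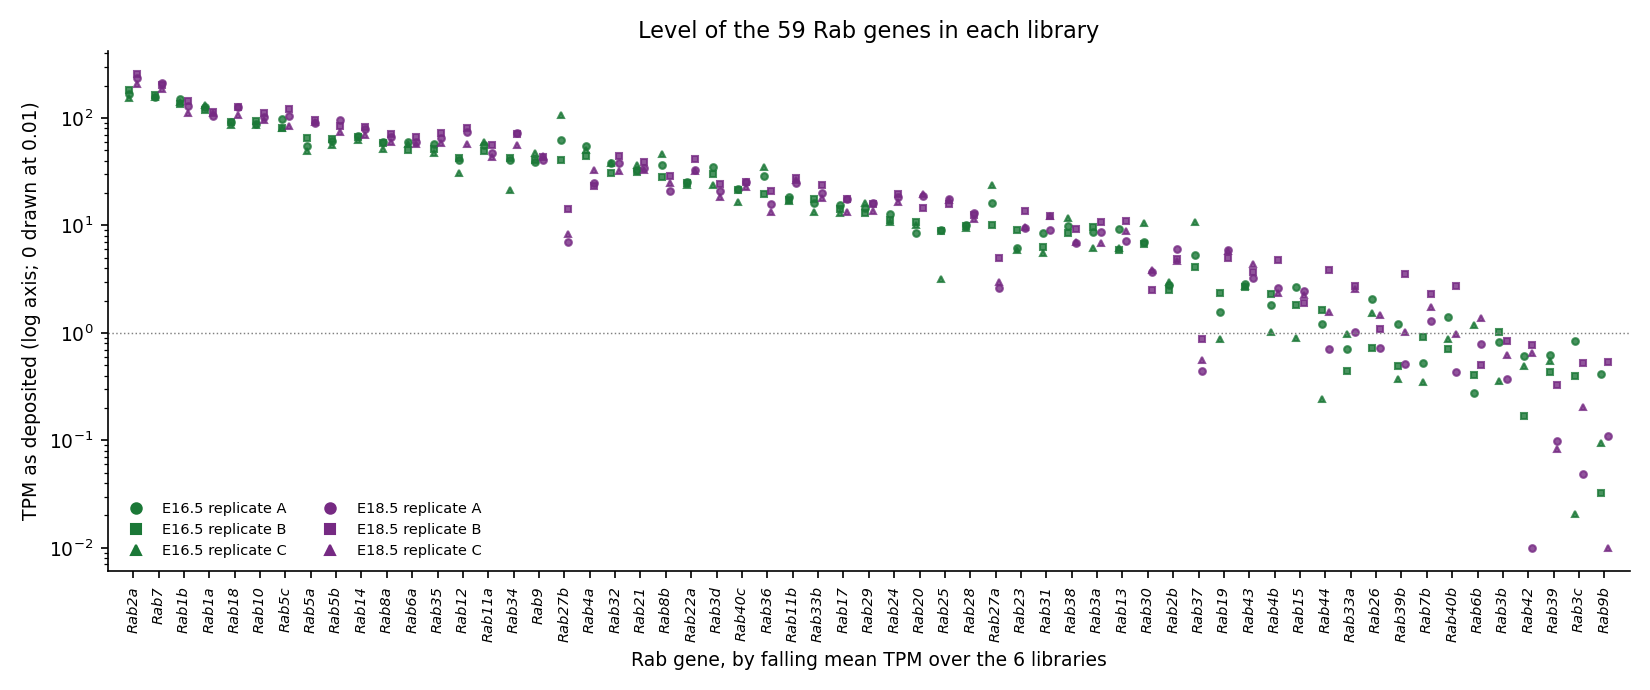
Level of each of the 59 Rab genes in TPM as deposited (log axis), ordered by mean over the 6 libraries, with 1 point per library, E16.5 in green and E18.5 in purple. Levels fall from Rab2a, the most abundant gene, to Rab9b, and the E18.5 points of Rab27b, Rab27a and Rab37 lie far below those of E16.5.

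The stages were compared with limma on log2(TPM + 1), with Benjamini-Hochberg adjustment over all 22452 genes, and a gene with an adjusted p under 0.05 is here said to be called. Fold changes on this scale understate the change of low genes. In TPM as deposited, 13 of the 53 tested Rab genes were called higher at E18.5, which is 24.5%, against 26.0% of all genes tested. Another 5 were called lower, which is 9.43%, against 5.22% of all genes. After median-of-ratios scaling 1 gene was called higher (1.89% against 6.44% of all genes) and 12 lower (22.6% against 10.5%). The median log2 fold change of the tested Rab genes was 0.29 as deposited, below the 0.42 of all genes, and -0.14 after scaling. The share called higher was near that of all genes as deposited.

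Genes were also counted whose 3 values at one stage all lay beyond the 3 values of the other. Of the 53 tested Rab genes, 27 were higher at E18.5 in this sense, against 45.0% of all genes, and 6 lower, against 8.30%. After median-of-ratios scaling 7 of the 53 were higher, against 19.7% of all genes. With that scaling 22 of the 53 were lower, a larger share than the 22.2% of all genes. Voom on recovered reads, which could test 42 of the genes, called 9 higher (21.4% against 26.5% of the 16420 genes it tested) and 8 lower (19.1% against 8.38%). The 35 tested genes that were not called in TPM as deposited had log2 fold changes between -0.68 and 0.81. Rab7 was the nearest among the abundant genes, with a log2 fold change of 0.32 ± 0.10 (SE) and an adjusted p of 0.0514. After scaling its direction turned, with a log2 fold change of -0.15 (adjusted p = 0.386).

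**Figure D2:**
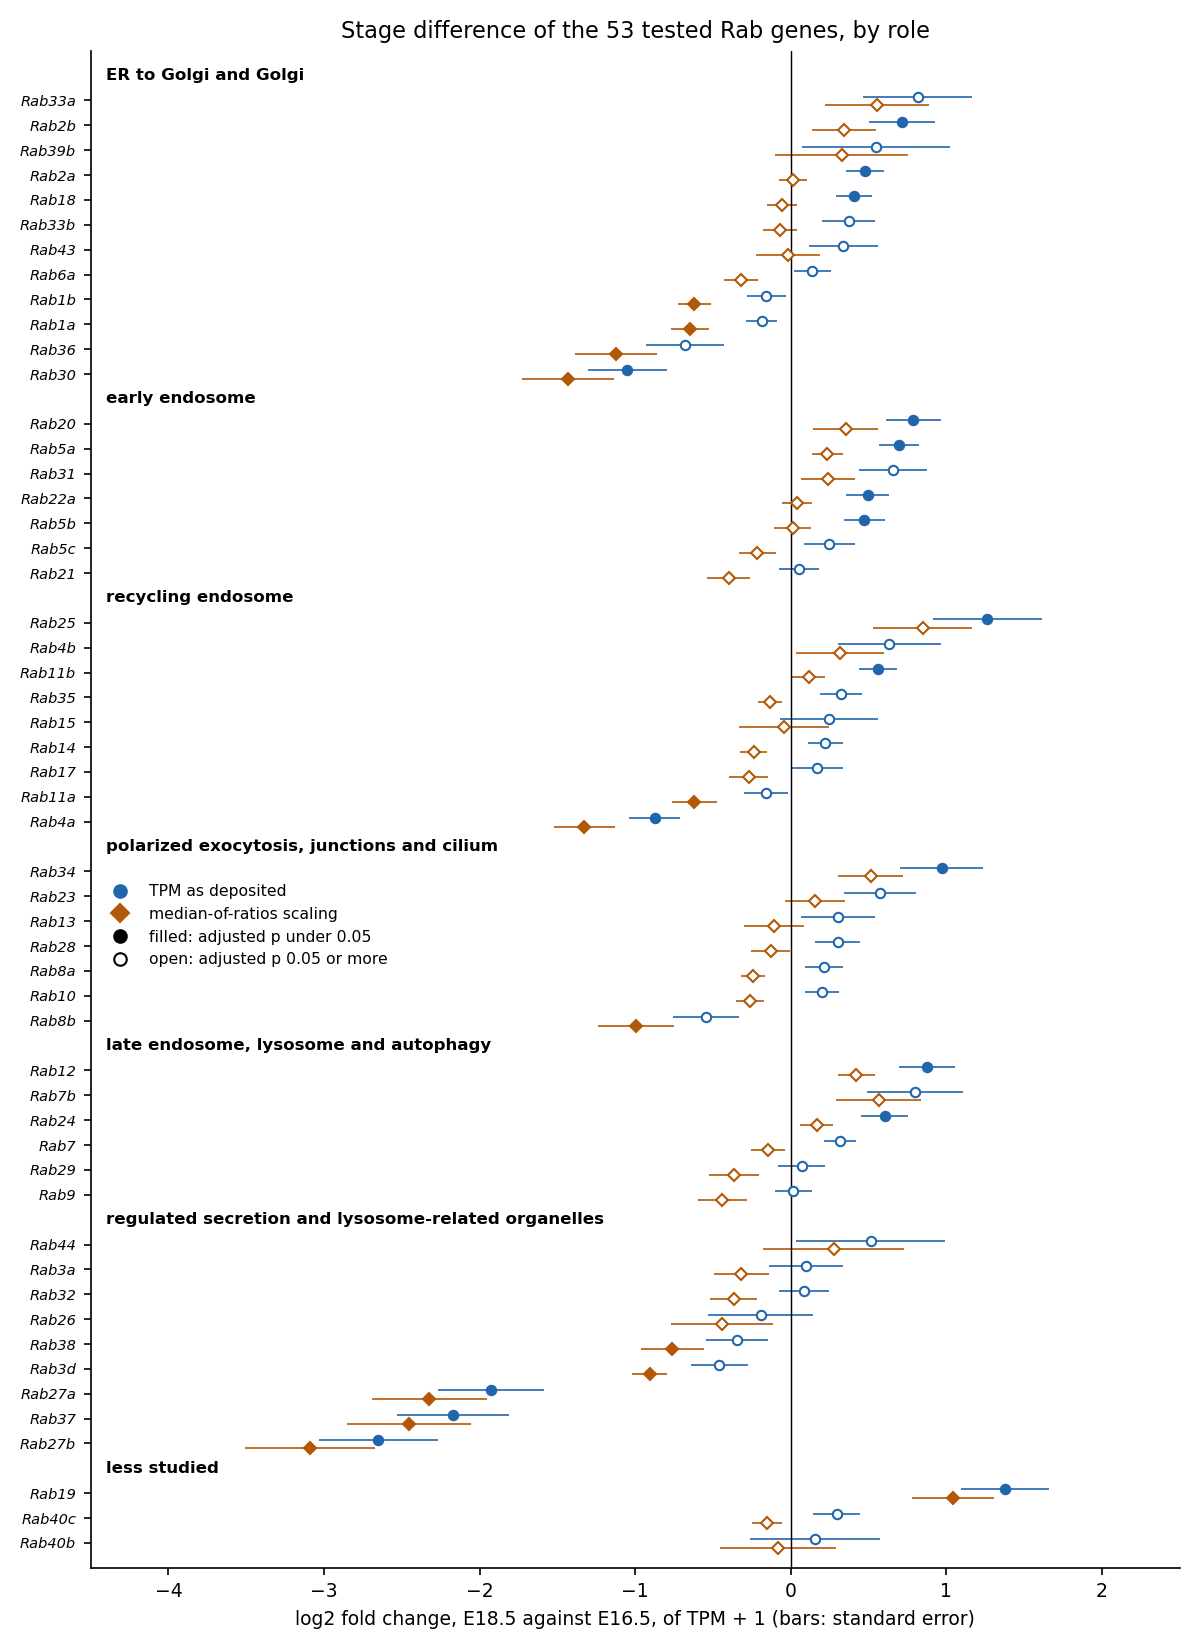
Log2 fold change of TPM + 1 from E16.5 to E18.5 for the 53 tested Rab genes (bars are standard errors), grouped by compartment, in TPM as deposited (blue circles) and after median-of-ratios scaling (orange diamonds), with filled symbols at an adjusted p under 0.05. Scaling moves all 53 genes to the left, and 6 genes are filled in both versions.

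Exactly 6 genes were called under both scalings. Rab27b, Rab27a, Rab37, Rab30 and Rab4a were lower at E18.5, and Rab19 was higher. The other 12 genes called as deposited were all rises, and 11 of them kept a fold change above 0 after scaling, the exception being Rab18. The number of calls depended on single libraries. It was 11 without E16.5 replicate A or without E16.5 replicate C, and lower without E18.5 replicate A or B. Without E18.5 replicate A, 2 Rab genes were called instead of 18, namely Rab27b (adjusted p = 0.0415) and Rab37 (adjusted p = 0.0467), and without E18.5 replicate B 7 were called. After scaling, with 1 library left out, the call was kept in 5 of 6 fits for Rab27b, Rab37 and Rab4a, in 4 for Rab27a, in 2 for Rab30 and in 1 for Rab19. The 7 genes called lower only after scaling were Rab3d, kept in all 6 such fits, Rab1b (4), Rab1a (3), Rab8b and Rab11a (2 each), Rab36 (1) and Rab38 (0).

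**Figure D3:**
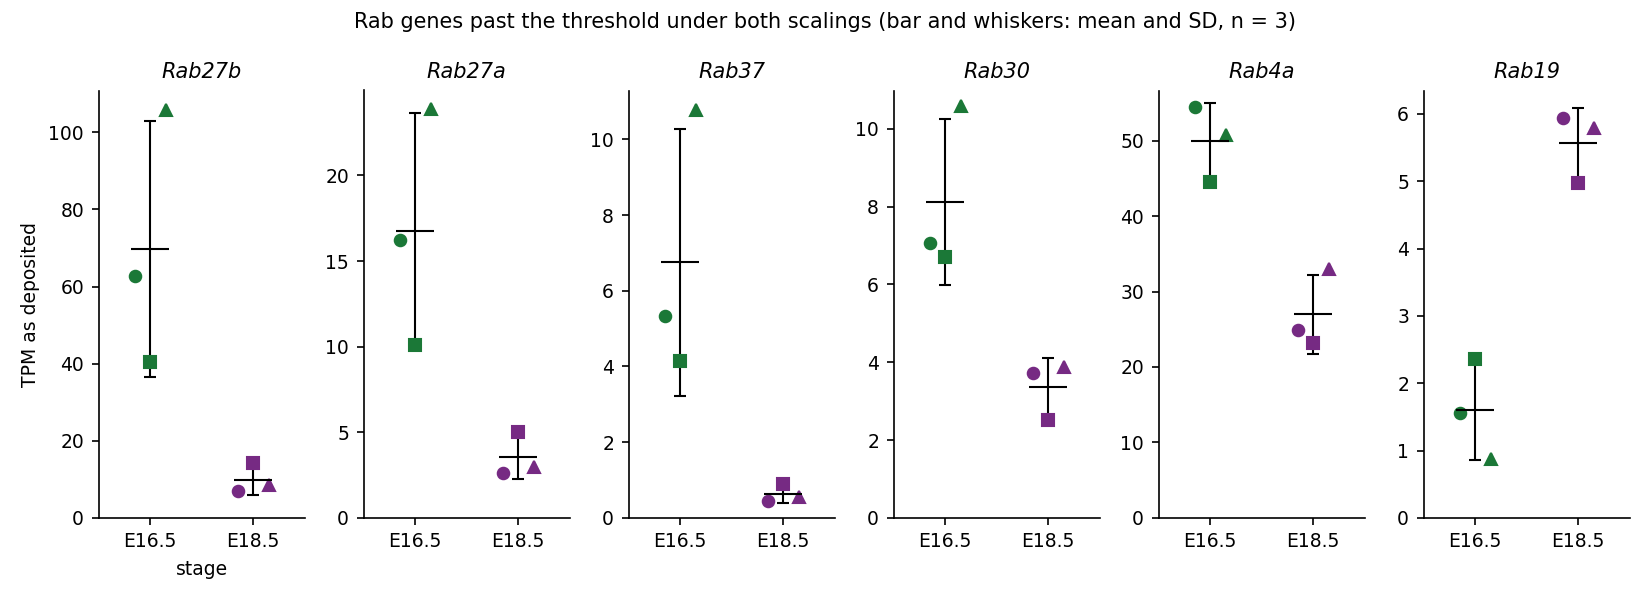
TPM as deposited of the 6 Rab genes called under both scalings, with replicate A as circles, B as squares and C as triangles, and with the mean and SD of the 3 libraries of each stage as bar and whiskers. Stages do not overlap for any of the 6 genes, and E16.5 replicate C is the highest library for Rab27b, Rab27a, Rab37 and Rab30 and the lowest for Rab19.

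The largest changes lay among the 11 Rabs of regulated secretion and lysosome-related organelles, which attach to stored granules and to organelles such as melanosomes and platelet granules. Of the 9 tested, 3 fell and none rose, and after median-of-ratios scaling 5 were called lower. Of all genes tested, 5.22% were called lower and 26.0% higher as deposited, and 10.5% were called lower after that scaling. No gene of the group was higher at an unadjusted p under 0.05, and voom called 4 lower and none higher. Their summed level was 181, 137 and 222 TPM at E16.5 against 85.9, 115 and 79.8 TPM at E18.5. It made up 9.51% of the summed Rab level at E16.5 and 4.39% at E18.5.

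Rab27b and Rab27a are close paralogs that bring secretory granules to the plasma membrane, and both are known from the release of platelet granules. Rab27b stood at 62.8, 40.4 and 106 TPM in E16.5 replicates A, B and C, and at 6.95, 14.2 and 8.39 TPM at E18.5. Every E16.5 library lay above every E18.5 library, and replicate C was the highest at E16.5. The log2 fold change was -2.65 ± 0.38 (SE), with an adjusted p of 0.00945 (0.00515 to 0.0535 over the alternatives), and -3.09 after median-of-ratios scaling. Rab27a, on chr9:73044854-73097629 of GRCm38, stood at 16.2, 10.1 and 23.9 TPM at E16.5 against 2.64, 4.99 and 2.98 TPM at E18.5. Its libraries stood in the same order, with replicate C highest at E16.5 and replicate B highest at E18.5. Its log2 fold change was -1.93 ± 0.34, with an adjusted p of 0.0132 in limma, and -2.32 after scaling. Without E18.5 replicate A the adjusted p of Rab27a was 0.0501. Rab37 (chr11:115091431-115162236), which is known from granules of mast cells and from secretion of proteins by several cell types, stood at 5.34, 4.14 and 10.8 TPM at E16.5. At E18.5 all 3 libraries were under 1 TPM, at 0.439, 0.881 and 0.554 TPM. Rab37 had a log2 fold change of -2.17 ± 0.36, with an adjusted p of 0.0115, and -2.45 after scaling.

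Among the other members of this group, Rab3d and Rab38 were called lower only after scaling. Rab3d, a Rab of zymogen and other secretory granules, was at 35.2, 29.9 and 23.8 TPM at E16.5 against 20.7, 24.3 and 18.4 TPM at E18.5. These ranges overlapped by a narrow margin, since E18.5 replicate B lay above E16.5 replicate C. Its log2 fold change was -0.46 ± 0.18 as deposited (adjusted p = 0.0916) and -0.91 after scaling (adjusted p = 0.0118). Rab38, which acts with Rab32 in the making of melanosomes and related organelles, had a log2 fold change of -0.34 as deposited (adjusted p = 0.212) and -0.76 after scaling (adjusted p = 0.0487). Rab32 itself averaged 35.6 ± 4.17 TPM at E16.5 against 38.0 ± 6.32 TPM at E18.5 and was called in neither version. Rab3a, Rab26 and Rab44 were also not called, with Rab3a at 8.12 ± 1.79 TPM at E16.5 against 8.75 ± 1.93 TPM at E18.5.

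Markers of megakaryocytes, the precursors of platelets, moved with Rab27b, Rab27a and Rab37. A list of 12 such markers summed to 6065, 3494 and 10060 TPM in E16.5 replicates A, B and C, and to 93.6, 798 and 227 TPM at E18.5. All 12 were called lower under both scalings, their median log2 fold change was -4.29, and none of the 12 was at 0 in any library. Platelet factor 4 (Pf4), the most abundant of them, stood at 1830, 1112 and 3505 TPM at E16.5 against 15.8, 273 and 57.0 TPM at E18.5. The order of the 6 libraries by this sum, which is E16.5 C, A and B followed by E18.5 B, C and A, was also their order by Rab27b, by Rab27a and by Rab37. Rab38 had this order within each stage only. Rab3d did not share it, and at E16.5 was highest in replicate A and lowest in replicate C. All libraries had passed both the lineage depletion and the sort for GFP. The surface markers that the paper names for the depletion include none of the 12 listed megakaryocyte markers. A list of pancreatic acinar genes summed to 2525, 233 and 84.5 TPM at E16.5 against 27.9, 56.5 and 19.9 TPM at E18.5, so that most of its E16.5 level lay in replicate A. As deposited 3 of its 7 tested genes were called lower, and after scaling none was, with 4 lower at an unadjusted p under 0.05. Without E16.5 replicate A 2 were called and their median log2 fold change was -0.84 instead of -2.18, without E16.5 replicate C 4 were called, and without any of the other 4 libraries none was. Lists of 9 pancreatic endocrine and 7 erythroid genes tested held no call at an adjusted or an unadjusted p under 0.05 with all libraries. The erythroid sum was highest in E18.5 replicate B, at 572 TPM, and without that library 3 of the 7 erythroid genes were called lower. Of the endocrine genes 1 was called lower without E16.5 replicate C and 1 higher without E18.5 replicate C. Of 9 leukocyte markers 1 was called higher and 1 lower, and 2 of 8 endothelial and 2 of 9 mesenchymal markers were higher as deposited. What part either cell type had in the fall of the secretory Rabs was not tested.

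**Figure D4:**
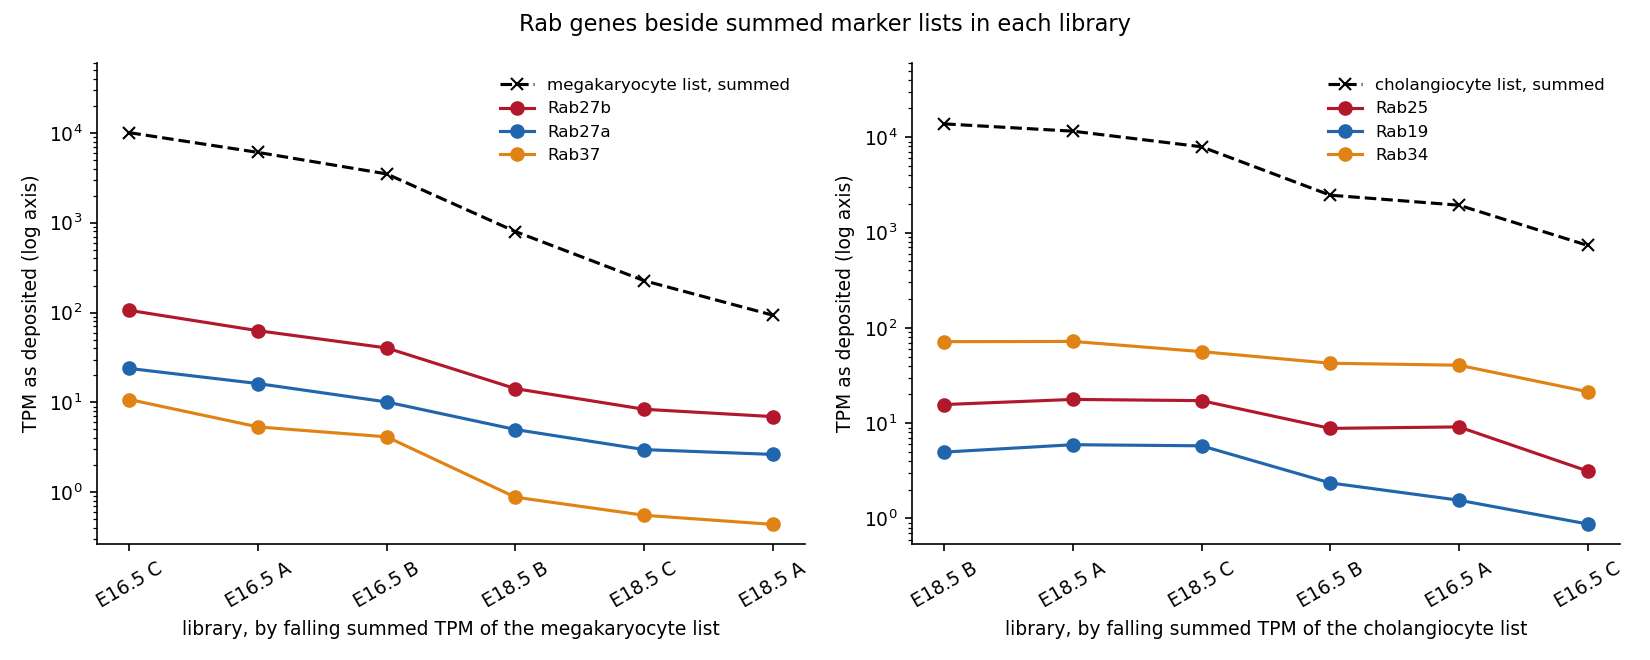
TPM as deposited (log axes) of Rab27b, Rab27a and Rab37 beside the summed megakaryocyte markers (left) and of Rab25, Rab19 and Rab34 beside the summed cholangiocyte markers (right), with the 6 libraries ordered by the marker sum. In the left panel all 4 lines fall from E16.5 replicate C to E18.5 replicate A, and in the right panel E16.5 replicate C is the lowest library on all 4 lines. That library is also lowest for most other Rab genes called higher, and Spp1 makes up most of the cholangiocyte sum.

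Recycling endosome Rabs, which return internalized membrane and receptors to the cell surface, moved in opposite directions. Of the 9 genes in this group, all tested, Rab25 and Rab11b rose, Rab4a fell and 6 were not called, and after scaling Rab4a and Rab11a were called lower. The shares of all genes were 26.0% higher and 5.22% lower as deposited, and 10.5% lower after scaling. Summed over the group the level was 264 ± 15.9 TPM at E16.5 against 283 ± 18.2 TPM at E18.5 (SD, n = 3).

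Rab4a (chr8:123805985-123835287), which serves the fast route from early endosomes back to the surface, stood at 54.5, 44.5 and 50.8 TPM in the E16.5 libraries and at 24.9, 23.2 and 32.9 TPM in the E18.5 libraries. The lowest E16.5 library was well above the highest E18.5 library. Rab4a had a log2 fold change of -0.87 ± 0.16, with an adjusted p of 0.0142 in limma, and -1.33 after scaling. Its adjusted p was 0.0567 without E18.5 replicate A. Rab25 (chr3:88542029-88548300), a Rab11 relative found in epithelial cells, stood at 9.13, 8.81 and 3.15 TPM at E16.5 against 17.7, 15.7 and 17.2 TPM at E18.5. All E18.5 libraries lay close together, whereas E16.5 replicate C was far below replicates A and B. The log2 fold change was 1.26 ± 0.35, with an adjusted p of 0.0346, and 0.85 after scaling, with an adjusted p of 0.116. Without E16.5 replicate C the log2 fold change of Rab25 was 0.84, and its call was lost without any single E18.5 library.

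Rab11b (chr17:33742484-33760530), which like Rab11a supplies apical membrane from the recycling endosome, stood at 18.4, 17.2 and 17.0 TPM at E16.5 against 24.8, 27.5 and 26.7 TPM at E18.5. Both sets of values were tight and did not overlap. The log2 fold change was 0.56 ± 0.12, with an adjusted p of 0.0190, and 0.12 after scaling (adjusted p = 0.483), and the call was lost without E16.5 replicate B, E18.5 replicate A or E18.5 replicate B. Rab11a (chr9:64715299-64737758), the more abundant paralog, stood at 55.6, 48.9 and 59.3 TPM at E16.5 against 47.0, 56.4 and 43.2 TPM at E18.5, with overlapping ranges. It was not called as deposited (-0.16, adjusted p = 0.391) and was called lower after scaling (-0.62, adjusted p = 0.0345). Rab14, Rab35, Rab17, Rab15 and Rab4b were called in neither version. Rab17, a Rab of polarized epithelia, averaged 14.2 ± 1.18 TPM at E16.5 against 16.2 ± 2.57 TPM at E18.5.

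Cholangiocyte markers also differed between libraries. The 10 markers summed to 1935, 2464 and 733 TPM in E16.5 replicates A, B and C and to 11560, 13789 and 7932 TPM at E18.5, and 8 of them were called higher as deposited and 4 after scaling. Their median log2 fold change was 1.65. Most of each sum was Spp1, with 1278, 1767 and 469 TPM at E16.5 against 10012.5, 12120.6 and 6628.6 TPM at E18.5. Sox9 itself, the gene whose reporter was sorted, stood at 157, 186 and 69.5 TPM at E16.5 against 415, 466 and 353 TPM at E18.5. E16.5 replicate C was thus the lowest library for Sox9, for the summed list and for Rab25, Rab19 and Rab34. Among the other Rab genes called higher as deposited, it was also lowest for Rab2a, Rab5a, Rab5b, Rab11b, Rab12, Rab18, Rab22a and Rab24. It was not lowest for Rab20 or Rab2b. The median-of-ratios scaling factor of this library, 0.765, was the lowest of the 6 libraries. The part of the cholangiocyte share in these rises was not tested.

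Early endosome Rabs govern the first station after endocytosis. Of 7 genes, all tested, Rab20, Rab5a, Rab22a and Rab5b rose (26.0% of all genes did) and none fell, also at an unadjusted p under 0.05 or with voom. After median-of-ratios scaling 0 of the 7 were called in limma, against 6.44% of all genes higher and 10.5% lower. At an unadjusted p under 0.05, 1 of the 7 was lower. Their summed level was 278 ± 14.7 TPM at E16.5 against 379 ± 30.8 TPM at E18.5 (SD, n = 3). Rab5a, a Rab that drives fusion of early endosomes, stood at 55.0, 65.1 and 49.8 TPM at E16.5 against 88.9, 95.0 and 91.5 TPM at E18.5. No library of one stage came within the range of the other. The log2 fold change was 0.70 ± 0.13, with an adjusted p of 0.0137, and 0.24 after scaling (adjusted p = 0.161), and the call was lost without E18.5 replicate A. Rab5b, its paralog, stood at 61.1, 63.9 and 55.9 TPM at E16.5 against 95.7, 84.0 and 73.4 TPM at E18.5, with a log2 fold change of 0.47 ± 0.13 (adjusted p = 0.0353) and of 0.01 after scaling. Rab5c, by mean the most abundant of the 3 paralogs at both stages, was at 98.5, 80.2 and 80.3 TPM at E16.5 against 105, 121 and 84.3 TPM at E18.5. It overlapped between stages and was not called.

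Rab20, a Rab linked to endosomes and phagosomes, stood at 8.55, 10.7 and 9.997 TPM at E16.5 against 18.9, 14.5 and 19.5 TPM at E18.5, with a log2 fold change of 0.79 ± 0.18 and an adjusted p of 0.0204. After scaling its log2 fold change was 0.35 (adjusted p = 0.283), and the call was lost without E16.5 or E18.5 replicate A. Another gene on the opposite strand shares 25.6% of the exon bases of Rab20. Rab22a, which sorts cargo from early to recycling endosomes, stood at 25.5, 24.8 and 23.5 TPM at E16.5 against 32.8, 41.1 and 32.0 TPM at E18.5. Its log2 fold change of 0.49 ± 0.14 (adjusted p = 0.0358) became 0.04 after scaling. For Rab22a and Rab5b alike, of the 6 fits that leave out 1 library, the call was kept only in the fit without E18.5 replicate C. Rab31 was at 8.45, 6.23 and 5.52 TPM at E16.5 against 9.04, 12.2 and 12.2 TPM at E18.5, with an adjusted p of 0.0563, and 0.382 after scaling. Rab21 had a log2 fold change of 0.05 as deposited and -0.40 after scaling, and was called in neither version.

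Of the 14 Rabs of the endoplasmic reticulum and Golgi, 12 were tested. Rab2a, Rab2b and Rab18 rose and Rab30 fell, against 26.0% and 5.22% of all genes. After scaling Rab30, Rab36, Rab1a and Rab1b were called lower, against 10.5% of all genes, and none higher, also at an unadjusted p under 0.05. This group held 33.8% of the summed Rab level at E16.5 and 33.1% at E18.5. Rab30 (chr7:92741603-92844535), a Golgi Rab, stood at 7.06, 6.71 and 10.6 TPM at E16.5 against 3.71, 2.52 and 3.88 TPM at E18.5. The stages were clearly apart, with replicate C highest at both. Rab30 had a log2 fold change of -1.05 ± 0.25, with an adjusted p of 0.0242, and -1.43 after scaling (adjusted p = 0.0268). Leaving out E16.5 replicate C, E18.5 replicate A or E18.5 replicate B ended this call, with adjusted p values from 0.0613 to 0.0679.

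Rab1a and Rab1b carry vesicles from the endoplasmic reticulum to the Golgi. Rab1a stood at 126, 119 and 131 TPM at E16.5 against 104, 114 and 111 TPM at E18.5, so that its stages did not overlap, but it was not called as deposited (-0.19, adjusted p = 0.185). After scaling its log2 fold change was -0.65 (adjusted p = 0.0213). Rab1b stood at 149, 136 and 142 TPM at E16.5 against 129, 143 and 112 TPM at E18.5, with log2 fold changes of -0.16 as deposited and -0.62 after scaling (adjusted p = 0.0170). Both genes are among the most abundant of the family. Rab36, a Golgi Rab that also positions lysosomes, was at 28.7, 19.5 and 34.7 TPM at E16.5 against 15.9, 20.9 and 13.3 TPM at E18.5, with log2 fold changes of -0.68 as deposited (adjusted p = 0.0750) and -1.12 after scaling (adjusted p = 0.0371).

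Rab2a stood at 167, 181 and 152 TPM at E16.5 against 237, 254 and 207 TPM at E18.5, without overlap. Its log2 fold change was 0.48 ± 0.12 (adjusted p = 0.0301) as deposited and 0.01 after scaling. Rab18, known from lipid droplets and from the endoplasmic reticulum, stood at 92.4, 92.1 and 86.1 TPM at E16.5 against 127, 128 and 106 TPM at E18.5. It had a log2 fold change of 0.41 ± 0.12 (adjusted p = 0.0376) as deposited, and of -0.06 after scaling, where its direction turned. Rab2b, the minor paralog of Rab2a, stood at 2.80, 2.53 and 2.95 TPM at E16.5 against 6.04, 4.84 and 4.67 TPM at E18.5, with a log2 fold change of 0.71 ± 0.21 (adjusted p = 0.0424) as deposited and of 0.34 (adjusted p = 0.290) after scaling. Genes on the opposite strand share 64.0% of the exon bases of Rab2b, whether counting used strand is not given in the sources used here, and its call was lost whichever library was left out. Of the fits without 1 library, Rab2a kept its call in those without E16.5 replicate B and E18.5 replicate C, and Rab18 in that without E18.5 replicate C.

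Rabs of polarized exocytosis, junctions and the cilium serve cells that form an apical pole and a primary cilium, as biliary cells do at these stages. Of 7 genes, all tested, Rab34 rose, 6 were not called, and after scaling Rab8b was called lower. Of all genes, 26.0% rose as deposited and 10.5% were called lower after scaling. Rab34 (chr11:78188430-78192193), which takes part in the formation of the cilium inside the cell, stood at 40.5, 42.5 and 21.4 TPM at E16.5 against 72.0, 71.6 and 56.3 TPM at E18.5. Replicate C was the lowest library at both stages. Rab34 had a log2 fold change of 0.97 ± 0.27, with an adjusted p of 0.0340, and 0.51 after scaling (adjusted p = 0.140), and leaving out E16.5 replicate A, E18.5 replicate A or E18.5 replicate B ended the call. Rab8a and Rab10, which deliver membrane to the cell surface, were not called. Rab8a averaged 56.3 ± 4.35 TPM at E16.5 against 65.5 ± 5.95 TPM at E18.5, and Rab10 had 89.5 ± 4.45 and 103 ± 8.05 TPM. For both genes every E18.5 library was above every E16.5 library as deposited, with log2 fold changes of 0.21 and 0.20. After scaling this was reversed, every E18.5 library lying below every E16.5 library, with log2 fold changes of -0.24 (adjusted p = 0.0730) and -0.26 (adjusted p = 0.0911). Rab8b, the paralog of Rab8a, stood at 36.3, 28.0 and 46.6 TPM at E16.5 against 20.8, 28.7 and 24.8 TPM at E18.5, with log2 fold changes of -0.54 as deposited (adjusted p = 0.0876) and -0.99 after scaling (adjusted p = 0.0403). Rab13, a Rab of tight junction assembly, was at 7.08 ± 1.82 TPM at E16.5 against 8.93 ± 1.89 TPM at E18.5 and was not called, and the same held for Rab23 and Rab28, both linked to cilia.

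Late endosome, lysosome and autophagy Rabs numbered 7, of which 6 were tested and Rab12 and Rab24 rose, against 26.0% of all genes. After scaling 0 of these 6 were called in limma, and at an unadjusted p under 0.05 1 was higher and 1 lower. Rab12, which sends receptors from recycling endosomes to lysosomes, stood at 41.0, 42.1 and 30.7 TPM at E16.5 against 74.3, 80.0 and 57.3 TPM at E18.5. All E18.5 libraries were higher, and replicate C was the lowest at both stages. Rab12 had a log2 fold change of 0.88 ± 0.18, with an adjusted p of 0.0168, and 0.42 after scaling (adjusted p = 0.0585), and the call was lost without E18.5 replicate A or B. Rab24, an atypical Rab linked to autophagy, stood at 12.7, 11.3 and 10.8 TPM at E16.5 against 18.3, 19.7 and 16.4 TPM at E18.5, with a log2 fold change of 0.60 ± 0.15 (adjusted p = 0.0256) that became 0.17 after scaling. Prelid1 on the opposite strand shares 62.4% of the exon bases of Rab24, and the call was kept without E16.5 replicate A or E18.5 replicate C and lost without any of the other 4 libraries. Rab9, which returns receptors from late endosomes to the Golgi, had 42.3 ± 4.33 TPM at E16.5 against 42.7 ± 2.28 TPM at E18.5, and Rab29 was not called.

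Among the less studied members, Rab19 was the only gene of the family called higher under both scalings. Rab19 (chr6:39381175-39390380) stood at 1.55, 2.36 and 0.876 TPM at E16.5 against 5.94, 4.97 and 5.78 TPM at E18.5. The stages did not overlap, and E16.5 replicate C was the lowest library. The log2 fold change was 1.38 ± 0.28 (adjusted p = 0.0167) as deposited and 1.04 after scaling (adjusted p = 0.0443). Rab19 was not called without E18.5 replicate A (adjusted p = 0.0620), and over the alternatives its adjusted p ran from 0.0139 to 0.135. Rab40c was at 19.9 ± 2.90 TPM at E16.5 against 24.5 ± 1.33 TPM at E18.5 and Rab40b at 0.990 ± 0.360 TPM at E16.5 against 1.38 ± 1.20 TPM at E18.5, and neither was called.

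The balance between paralogs within a library does not depend on scaling between libraries, so it was computed as the log2 ratio of their TPM for 17 pairs, of which 14 had both genes at a mean of at least 1 TPM and above 0 in every library. The stages did not overlap for 7 pairs, with 4 ratios higher and 3 lower at E18.5. Each of these had an exact two-sided permutation p of 0.1 (0.2 after Benjamini-Hochberg adjustment over the 14 pairs), the smallest that 3 libraries against 3 can give, so no pair could pass a threshold of 0.05. All pairs shared between 63.8% and 78.5% of aligned coding bases, and the longest identical stretch, in Rab1a and Rab1b, was 38 bases.

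Within the Rab11 group the share of Rab11a was lower in all E18.5 libraries. The log2 ratio of Rab11a to Rab25 was 2.61, 2.47 and 4.24 in E16.5 replicates A, B and C and 1.40, 1.85 and 1.33 at E18.5. Rab11a to Rab11b had a log2 ratio of 1.64 ± 0.15 (SD, n = 3) at E16.5 and of 0.88 ± 0.17 at E18.5, so that Rab11a made up 75.6% of the pair at E16.5 and 64.8% at E18.5. Rab25 and Rab11b both rose in TPM as deposited, whereas Rab11a was not called. Rab4a to Rab4b stood at 4.94 ± 0.68 and 3.11 ± 0.77. Rab4b had 1.84, 2.28 and 1.02 TPM at E16.5 against 2.60, 4.77 and 2.37 TPM at E18.5, and 65.0% of its exon bases are shared with other genes of the same strand. Its level is therefore uncertain.

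In the secretory group the log2 ratio of Rab27a to Rab27b was -2.03 ± 0.10 at E16.5 and -1.47 ± 0.06 at E18.5, although both genes fell. That of Rab3a to Rab3d was -1.87 ± 0.21 and -1.29 ± 0.12, and that of Rab32 to Rab38 was 1.83 ± 0.13 and 2.30 ± 0.15. Outside this group, Rab8a to Rab8b stood at 0.63 ± 0.47 and 1.41 ± 0.23, and Rab8a made up 60.6% of the pair at E16.5 and 72.6% at E18.5. In each of these 4 pairs the gene with the smaller share at E18.5 than at E16.5 was called lower after median-of-ratios scaling. Ratios overlapped between stages for the Rab1, Rab2, Rab5, Rab33 and Rab40 pairs and for Rab22a and Rab31, with the Rab1a to Rab1b ratio the closest between stages, at -0.18 ± 0.07 and -0.22 ± 0.18. The ratio of Rab40b to Rab40c spread most, with an SD of 1.33 at E18.5, where Rab40b is near 1 TPM.

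**Figure D5:**
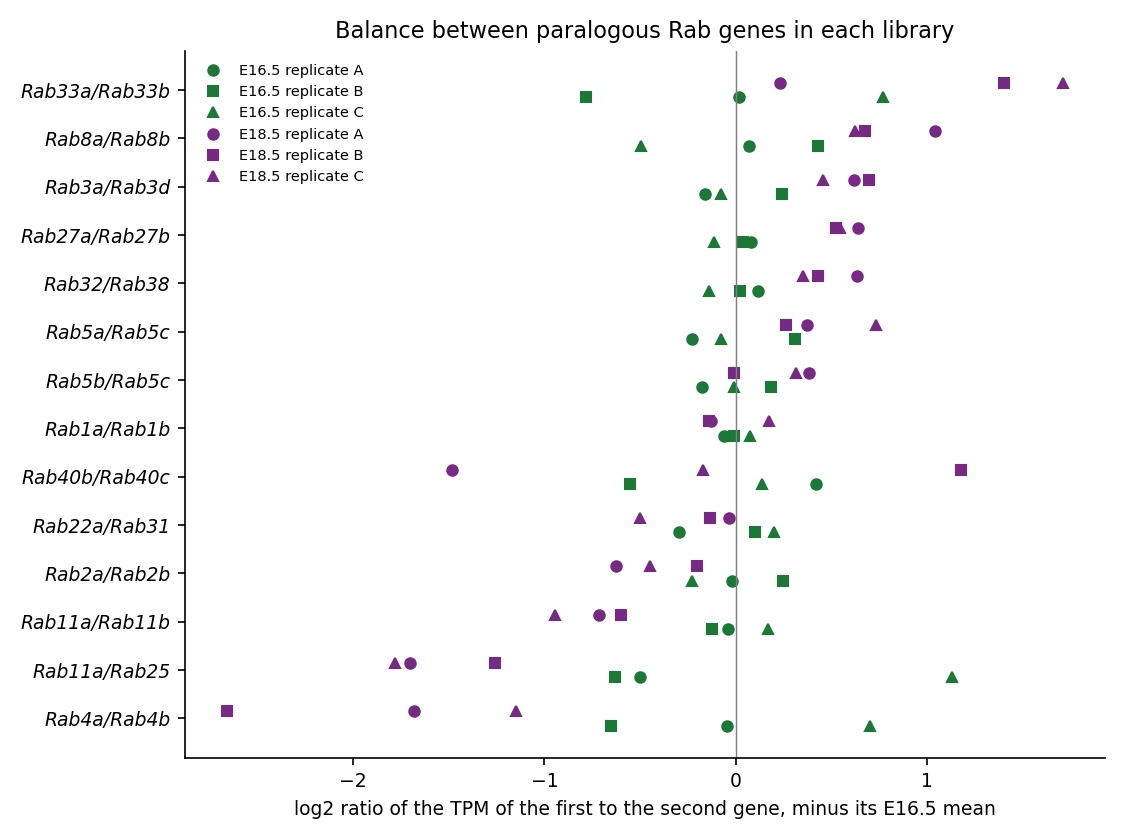
Log2 ratio of the TPM of 2 paralogs in each library, minus the E16.5 mean of that ratio, for the 14 pairs used, with E16.5 in green and E18.5 in purple. The E18.5 points lie wholly to the left for Rab4a/Rab4b, Rab11a/Rab25 and Rab11a/Rab11b and wholly to the right for Rab8a/Rab8b, Rab3a/Rab3d, Rab27a/Rab27b and Rab32/Rab38.

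The rest of the Rab cycle was described with a list of 114 regulators and effectors, of which 112 were tested. As deposited 50 were higher and 6 lower at E18.5, which is 44.6% and 5.36%, against 26.0% and 5.22% of all genes. They had a median log2 fold change of 0.41, close to that of all genes. After scaling 7 were higher and 14 lower, which is 6.25% and 12.5%, against 6.44% and 10.5% of all genes, with a median of -0.04. The share of rises was thus above that of all genes only as deposited. Of the 34 GAPs, 14 were called higher and none lower as deposited, with 1 lower at an unadjusted p under 0.05, and 3 were higher and 3 lower after scaling. Of the 31 GEFs, 12 were higher and 2 lower as deposited, and 1 was higher and 5 lower after scaling. Of the 40 effectors tested, 20 were higher and 4 lower as deposited, and 3 were higher and 6 lower after scaling. Among the 7 genes for prenylation and GDP dissociation inhibition 4 were higher and none lower as deposited, also at an unadjusted p under 0.05. After scaling 0 of these 7 were called in limma, and 0 had an unadjusted p under 0.05.

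Of the 3 largest falls, 2 were in effectors of Rab27. Unc13d, a priming factor for granules that binds Rab27, stood at 38.9, 24.2 and 62.5 TPM at E16.5 against 4.47, 9.16 and 7.21 TPM at E18.5. Sytl4, or granuphilin, another Rab27 partner on granules, stood at 24.9, 17.0 and 38.1 TPM at E16.5 against 4.02, 8.13 and 3.60 TPM at E18.5. Both showed E16.5 replicate C as the highest library, as did Rab27a and Rab27b. Their log2 fold changes were -2.38 ± 0.37 (adjusted p = 0.0106) and -2.14 ± 0.36 (adjusted p = 0.0120), with -2.80 and -2.56 after scaling. Ehbp1l1, an effector of Rab8 in transport to the apical surface, also fell, by a log2 fold change of -1.67 ± 0.36 (adjusted p = 0.0191), from 37.3 ± 14.4 TPM to 10.9 ± 4.16 TPM, and by -2.11 after scaling. These 3 genes had the same highest library as the megakaryocyte markers, and the part of those cells in the falls was not tested. Other listed effectors that bind Rab27 did not fall with Unc13d and Sytl4. Rph3al was called higher as deposited, with a log2 fold change of 1.19 (adjusted p = 0.0292), and 0.77 after scaling (adjusted p = 0.0818). As deposited Sytl1, Sytl5, Mlph and Exph5 had log2 fold changes above 0 without a call, and Sytl2 had -0.08, also without a call.

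The largest rises were in partners of Rab11, of Rab8 and of Rab5. Rab11fip4, which links Rab11 to its motor and tethering partners, stood at 33.9, 39.7 and 23.8 TPM at E16.5 against 96.5, 102 and 67.6 TPM at E18.5. No E18.5 library came near the E16.5 range, and the log2 fold change was 1.43 ± 0.23 (adjusted p = 0.0112), with 0.97 (adjusted p = 0.0197) after scaling. Rilpl1, a partner of Rab8 and Rab10 at the base of the cilium, rose from 5.71 ± 2.16 TPM to 15.2 ± 1.65 TPM, with a log2 fold change of 1.32 ± 0.28 (adjusted p = 0.0174) and 0.91 after scaling. Rin2, an exchange factor for Rab5, rose from 9.13 ± 2.27 TPM to 22.5 ± 1.01 TPM, with a log2 fold change of 1.24 ± 0.20 (adjusted p = 0.0112) and 0.81 after scaling. All 3 were called under both scalings. E16.5 replicate C was the lowest library for all 3, as it was for the summed cholangiocyte markers. The part of the cholangiocyte share in these rises was not tested. Without E18.5 replicate A, the calls over the whole list fell from 56 to 6.

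The calls can be set beside the coding ends shown above. Of the 29 tested genes with adjacent cysteine codons, 11 rose in TPM as deposited, which is 37.9%, against 26.0% of all genes, and Rab30 and Rab37 fell. After median-of-ratios scaling none of these 29 was called higher, with Rab12, Rab25 and Rab34 higher at an unadjusted p under 0.05, and 6 were called lower. Of the 15 tested genes with cysteine as the last codon and the last but 2, Rab19 rose as deposited, which is 6.67%. In the same class Rab27a, Rab27b and Rab4a fell as deposited, and 1 was called higher and 4 lower after scaling. Among the 9 genes with a single cysteine codon as the last codon but 3, Rab18 rose as deposited, which is 11.1%. None of the 9 fell, with Rab8b lower at an unadjusted p under 0.05. After scaling 2 of these 9 were called lower and none higher, also at an unadjusted p under 0.05. Of all genes, 5.22% fell as deposited, and 6.44% were called higher and 10.5% lower after scaling. The figures by ending are counts without a test, and many paralogs share the form of their ending.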

How the data were processed

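RNA from GFP-positive cells of Sox9-GFP mouse livers was sequenced from total RNA with a stranded kit. The authors checked the reads with FastQC 0.11.7, trimmed them with Trimmomatic, aligned them to GRCm38 with HISAT2 2.1.0, took gene counts with HTSeq-count 0.5.4p3 and the GENCODE vM15 annotation, and turned these into TPM. The deposited TPM of 52550 genes were used as given, and the 37 mitochondrial genes listed are at 0 in every library. Whether counting used strand is not given in the sources used here. Per the labels, libraries were assigned to stages by their titles.

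GENCODE vM21, on the same build, gave gene names and positions. It holds 52403 of the identifiers, 49035 of them with the same version. TPM times exon length gave whole reads, within 0.01, for 100% of the 180057 nonzero values of the latter genes, and recovered reads, available for 50 of the 59 Rab genes, served for depth and for voom only. TPM themselves carry no depth, so no interval per library is given.

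For the stage comparison, log2(TPM + 1) of genes whose mean reached 1 TPM was fitted with limma 3.58.1 (R 4.3.3, moderated with a mean-variance trend), and p-values were adjusted by Benjamini-Hochberg with a threshold of 0.05. Paralog ratios were compared by an exact permutation test in Python 3.11.15. The limma and voom fits were tried on simulated data. These held no general shift between the stages, so they cannot bear on the choice of scaling. Alternatives were median-of-ratios scaling, quantile normalization, a pseudocount of 0.1 TPM, no filter, a mean of at least 5 TPM, eBayes without trend or robust, the replicate letter as a block, voom on recovered reads, and leaving out each library. Median-of-ratios scaling with each library left out was added after seeing the data.

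The members, role groups, regulator, marker and pair lists were chosen with earlier results of these data known. Rab genes named with values are the 12 largest rises and falls among those called, those called after median-of-ratios scaling, the 10 with the highest mean TPM and both genes of each pair, and of the regulators the 3 largest rises and falls. Other Rab genes are named as members of their group, with values chosen after they were seen.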

Additional observations from a re-analysis of the deposited data

How the results depend on the processing

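The number of Rab genes called was 18 and stayed within 1.5 times of that under 8 of the 9 alternatives that kept all libraries, and was 10 with no filter on low values. Similar totals did not mean the same genes. As deposited 13 were higher and 5 lower, with median-of-ratios scaling 1 was higher and 12 lower, and 6 genes were called in both. Leaving out 1 library, with or without median-of-ratios scaling, gave between 1 and 16. The lowest counts came without E18.5 replicate A, being 2 as deposited and 1 with that scaling. The median log2 fold change of the tested Rab genes, 0.29 as reported, was -0.14 with median-of-ratios scaling, -0.0695 with quantile normalization and 0.15 with voom on recovered reads, and lay between 0.17 and 0.34 when 1 library was left out. The 56 calls among regulators and effectors became 21 with median-of-ratios scaling, 25 with quantile normalization, 30 with no filter and between 6 and 37 with 1 library left out.

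The log2 fold change of Rab18 was -0.0569 with median-of-ratios scaling. With 1 library left out, with or without that scaling, the log2 fold change lay between -0.12 and 0.49 for Rab18, between -0.0104 and 0.56 for Rab22a, between -0.0492 and 0.56 for Rab2a and between -0.10 and 0.57 for Rab5b. The causes of these changes were not tested. The number of pairs whose stages did not overlap was 7 and lay between 8 and 10 with 1 library left out. Leaving out a library cannot make stages overlap that were apart, so this number could only stay the same or rise.

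With the replicate letter as a block, 19 Rab genes were called, and the call of Rab2b was lost. The letters were not taken as pairs, since the deviations of same-lettered libraries from their stage means correlated at -0.04 for A, 0.08 for B and 0.14 for C over 22452 genes.

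Depth limits the low genes most, since 3 reads stood for 0.210 TPM of the median Rab gene in E18.5 replicate C. With 3 pools a stage, only changes well above the spread between pools can be called.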
